A study of Mus musculus with 36 samples.

Results

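The 10 genes described here encode proteins that neutrophils store in granules or hold in bulk in their cytosol: Elane, Prtn3, Mpo, Ctsg, Ngp, Camp, Ltf, Mmp8, S100a8 and S100a9. They were found by their symbol in the platform annotation, which gives each of them 1 probe set, so they are 10 of the 22180 genes with 1 symbol and 10 of the 41345 probe sets on the array. The set was chosen by gene function and with measured values in view: Elane and Prtn3 were known to be higher in TB livers on these same arrays, so the TB minus WT differences of the members are given as a description. Measures that the choice did not use are the time of day, the variation between arrays of the same group, and the sets into which the arrays fell.

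The TB samples were livers of C57BL/6 mice with lung adenocarcinoma that carry p53fl/fl among their alleles, and the WT samples were livers of WT C57BL/6 mice. All mice lived under 12 h of light and 12 h of darkness, and livers were taken at 6 Zeitgeber times (ZT, hours after lights on), every 4 h from ZT 0 to ZT 20. This gave 12 groups with 3 arrays of the 1-colour Affymetrix type apiece, 36 arrays altogether. A floxed allele is deleted where Cre recombinase acts, and the labels give neither the source of the Cre recombinase nor the tumour burden, age or sex of the mice. The labels do not say that the arrays of a group came from separate mice, so the p-values rest on the scatter among samples, part or all of which may be technical.

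Neutrophils make their granule proteins in the bone marrow, in waves that follow maturation. Elane (neutrophil elastase), Prtn3 (proteinase 3), Ctsg (cathepsin G) and Mpo (myeloperoxidase) belong to the primary or azurophil granules and are transcribed in promyelocytes, whereas Ngp (neutrophilic granule protein), Camp (the cathelicidin precursor), Ltf (lactoferrin) and Mmp8 (neutrophil collagenase) are products of the later secondary and tertiary granules. S100a8 and S100a9 form calprotectin, the abundant cytosolic calcium-binding complex of mature neutrophils. Transcription of primary granule genes is largely switched off by the time a neutrophil enters the blood, so in adult liver these transcripts are usually scarce. In whole liver RNA, fewer cells of a type and less RNA per cell cannot be told apart.

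Prtn3 and Elane lie side by side on the plus strand of chromosome 10 (RefSeq, GRCm38.p6), Prtn3 at chr10:79879667-79883174 and Elane at chr10:79886312-79888216. They are 3137 bases apart with 0 annotated genes between them. S100a8 and S100a9 are neighbours on chromosome 3, 22595 bases apart. Mpo lies on chromosome 11, Ctsg on chromosome 14, and Camp, Ngp, Ltf and Mmp8 on chromosome 9. The 250 bases before the annotated start of Prtn3 (chr10:79879417-79879666), Elane (chr10:79886062-79886311) and Mpo (chr11:87793534-87793783), all on the plus strand, and of Ctsg (chr14:56102575-56102824, minus strand) are printed because these are the 4 primary granule genes, whose values are set beside each other here. Capitals mark GAGGAAGT, a form of the binding sequence of PU.1 (Spi1), and AACGG, a form of the MYB binding sequence.
Prtn3: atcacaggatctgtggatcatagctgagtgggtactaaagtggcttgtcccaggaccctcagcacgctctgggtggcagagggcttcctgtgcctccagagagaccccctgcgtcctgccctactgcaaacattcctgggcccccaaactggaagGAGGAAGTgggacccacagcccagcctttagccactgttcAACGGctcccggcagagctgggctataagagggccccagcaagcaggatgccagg
Elane: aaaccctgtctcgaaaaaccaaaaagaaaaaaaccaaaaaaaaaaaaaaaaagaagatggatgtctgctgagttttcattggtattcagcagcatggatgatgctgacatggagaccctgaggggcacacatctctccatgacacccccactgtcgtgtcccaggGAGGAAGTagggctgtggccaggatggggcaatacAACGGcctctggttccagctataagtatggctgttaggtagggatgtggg
Mpo: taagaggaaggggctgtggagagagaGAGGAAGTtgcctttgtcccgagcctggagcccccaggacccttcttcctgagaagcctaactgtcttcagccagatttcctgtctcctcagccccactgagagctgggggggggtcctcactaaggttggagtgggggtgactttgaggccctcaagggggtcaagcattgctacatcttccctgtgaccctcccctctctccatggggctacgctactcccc
Ctsg: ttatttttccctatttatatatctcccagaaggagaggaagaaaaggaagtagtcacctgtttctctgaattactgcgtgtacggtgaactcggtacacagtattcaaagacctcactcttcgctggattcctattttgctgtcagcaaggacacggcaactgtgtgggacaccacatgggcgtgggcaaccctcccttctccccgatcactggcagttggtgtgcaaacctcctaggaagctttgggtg

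Both motifs stand in the Prtn3 and Elane promoters in the same order and at like distances. In Prtn3 GAGGAAGT covered bases 95 to 88 and AACGG bases 55 to 51 before the start. In Elane these were bases 85 to 78 and bases 50 to 46. Searched on both strands, GAGGAAGT was found in 5 of the 10 members (Elane, Prtn3 and Mpo on the plus strand of the gene, Mmp8 and S100a8 on the minus strand), and in 2.44% of all 32851 promoters of the same length. AACGG was in 2 members and in 14.5% of promoters. The Ctsg sequence held neither, and so has no capitals. A C/EBP form, TTGCNNAA, was in Ngp, Ltf, Mmp8 and S100a9 and in 9.56% of promoters, and a STAT form, TTCNNNGAA, was in Ctsg alone among the members and in 7.02% of promoters. The motif letters were chosen after the promoters had been read, no motif overlapped another in the printed sequences, and a match of letters is not a binding site.

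Values of the members were low on these arrays. Array medians over all probe sets lay between 36.3 and 43.3 intensity units, and 16 units were added before taking log2. Under 16 units lay 29 of the 36 Mmp8 values, 15 of Prtn3, 14 of Camp and 8 of Mpo, and none of the other 6 members. No detection calls are in the sources used here, so a value near 16 is not read as expression, and differences on the log2(intensity + 16) scale understate changes of such genes.

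The arrays fell into sets of 24 and 12 by the first principal component of probe sets without a symbol, which took 28.8% of their variance within groups. The smaller set held 1 array of each group, so it was balanced over genotype and time. The WT array of ZT 12 replicate 3 held skeletal muscle transcripts: the 8 muscle markers summed up to 267000 units there, and to between 428 and 706 in TB livers. Summed hepatocyte markers (7 of 8 measured) ranged from 45500 to 49900 in TB livers and from 42800 to 50300 in WT livers.

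Prtn3, the serine protease proteinase 3, varied the most. It ranged from 3.75 to 385 intensity units in TB livers, with a median of 99.4, and from 0.00451 to 289 in WT livers, with a median of 10.4. Its SD within groups was 1.16 on the log2 scale, at the 99.9th percentile of all genes, where those of the other 9 members lay between 0.105 and 0.373. Of the 18 TB arrays, 16 were above the WT median, and of the 18 WT arrays 2 were above the TB median. The groups overlapped widely, since only 1 TB array was above the highest WT array.

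By time, Prtn3 read 385, 17.1 and 37.5 intensity units in TB livers and 55.4, 182 and 13.5 in WT livers at ZT 0. At ZT 4 it read 91.0, 51.2 and 278 intensity units in TB livers and 8.48, 2.35 and 2.88 in WT livers. At ZT 8 it read 279, 24.2 and 134 intensity units in TB livers and 6.34, 15.0 and 55.4 in WT livers. All TB arrays were above all WT arrays at ZT 4, and the groups overlapped at ZT 0 and ZT 8, where single arrays stood far above their replicates. Values at ZT 12 were 180, 126 and 108 intensity units in TB livers and 289, 10.7 and 1.01 in WT livers. Values at ZT 16 were 162, 115 and 88.3 intensity units in TB livers and 10.1, 0.00451 and 18 in WT livers. Values at ZT 20 were 7.45, 49.4 and 3.75 intensity units in TB livers and 12.9, 5.63 and 1.70 in WT livers. The groups were apart at ZT 16 and overlapped at ZT 12, where WT replicate 1 was the highest of all 6 arrays, and at ZT 20, where no array was above 49.4 units.

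Averaged over the 6 times, Prtn3 was higher in TB livers by 1.52 in log2 (SE 0.35), 2.87-fold on the log2(intensity + 16) scale, with group means of 6.61 in TB livers and 5.09 in WT livers (n = 18 each). Its adjusted p was 0.0652 by limma, above the threshold of 0.05. TB was higher at 6 of 6 times, by 0.26 at ZT 0 to 2.65 at ZT 4. The size of the difference depended on the number added before taking log2, being 2.55 with 1 unit and 0.83 with 64 units (adjusted p 0.0702 and 0.133, limma), and it was 1.40 within the larger and 1.76 within the smaller array set.

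**Figure D1:**
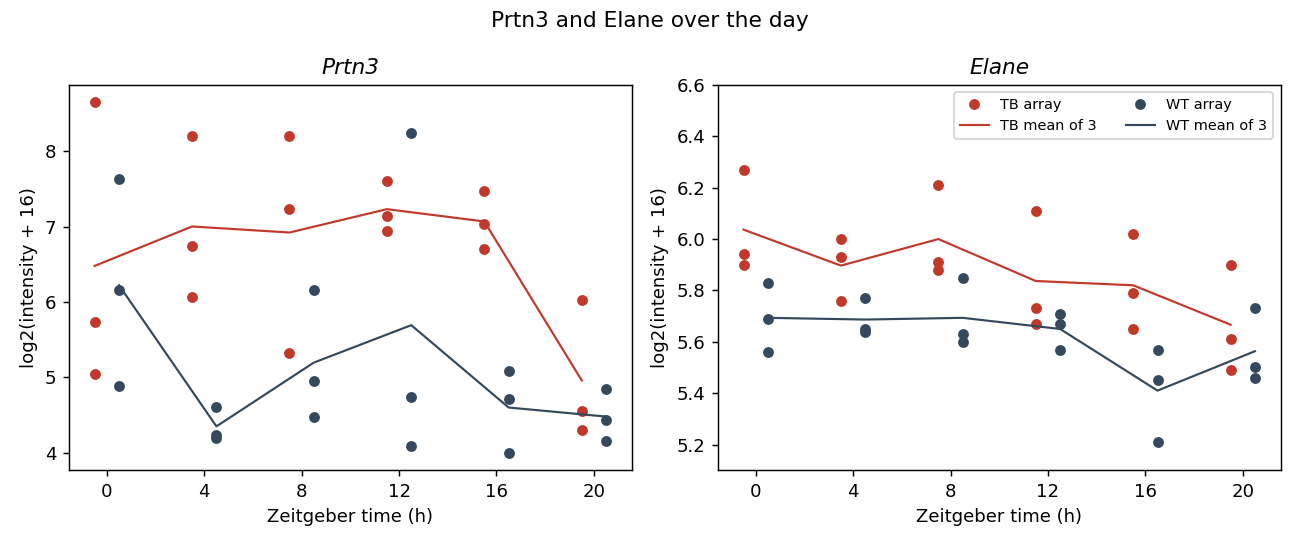
Level of Prtn3 (left) and Elane (right) on the log2(intensity + 16) scale (y axis) against Zeitgeber time in hours (x axis), with TB arrays in red just left of WT arrays in dark blue; points are arrays and lines join means of 3. Prtn3 spreads over several log2 units within a group, whereas Elane moves within a narrow band in which all 3 TB points lie above all 3 WT points at ZT 0, 8 and 16.

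Elane, the serine protease neutrophil elastase, showed a small difference with little spread. It ranged from 28.9 to 61.3 intensity units in TB livers, with a median of 43.8, and from 21.1 to 41.8 in WT livers, with a median of 33.7. Of the 18 TB arrays, 16 were above the WT median and 11 above the highest WT array, and none of the 18 WT arrays was above the TB median. The mean difference was 0.26 in log2 (SE 0.056), 1.2-fold on the log2(intensity + 16) scale. Means were 5.88 in TB livers and 5.62 in WT livers (n = 18 each, SD within groups 0.165, adjusted p = 0.0442 by limma). With single arrays left out in turn, the call held in only 10 of 36 fits and was lost in the others. The differences were 0.26 within the larger array set (adjusted p 0.0313) and 0.27 within the smaller (adjusted p 0.487, limma). With 1 unit added before taking log2 the difference was 0.36, and with 64 units 0.14 (adjusted p 0.0579 and 0.0446, limma). TB was higher at 6 of 6 times, by 0.10 at ZT 20 to 0.41 at ZT 16.

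At ZT 0 Elane read 61.3, 43.8 and 45.3 intensity units in TB livers and 40.9, 35.8 and 31.3 in WT livers. At ZT 8 it read 58.0, 43 and 44.2 intensity units in TB livers and 32.6, 41.8 and 33.5 in WT livers, and at ZT 16 it read 34.4, 48.9 and 39.3 intensity units in TB livers and 21.1, 31.6 and 27.6 in WT livers. The groups did not overlap at these times. At ZT 4 values were 47.8, 45 and 38.1 intensity units in TB livers and 33.9, 34.4 and 38.5 in WT livers. At ZT 12 they were 37.0, 53.1 and 35.1 intensity units in TB livers and 31.4, 36.2 and 34.9 in WT livers, and at ZT 20 they were 32.7, 43.7 and 28.9 intensity units in TB livers and 28, 29.2 and 37.1 in WT livers. Here the groups overlapped, at ZT 4 and ZT 12 because the lowest TB array was below the highest WT array.

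The other primary granule genes gave values that overlapped at all 6 times. Mpo, the peroxidase that makes hypochlorous acid, ran from 12.4 to 26.5 units in TB livers (median 21.5) and from 8.13 to 34.0 in WT livers (median 19.0). Its difference was 0.05 in log2 (SE 0.069, 95% interval -0.089 to 0.19), and TB was higher at 2 of 6 times. Ctsg, a granule serine protease with chymotrypsin-like activity, ran from 23.4 to 62.7 units in TB livers (median 42.0) and from 20.2 to 52.8 in WT livers (median 37.4). The Ctsg difference was 0.08 (SE 0.083, interval -0.087 to 0.25), with TB higher at 3 of 6 times. Adjusted p-values were 0.831 for Mpo and 0.759 for Ctsg (limma).

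Differences of the secondary and tertiary granule genes were 0.07 in log2 or less in size. Ngp, a cystatin-like granule protein, ran from 22.9 to 67.4 units in TB livers (median 44.7) and from 25.8 to 54.5 in WT livers (median 39.9), a difference of 0.07 (SE 0.099). Camp, the antimicrobial peptide precursor, ran from 10.1 to 31.6 units in TB livers (median 17.3) and from 10.7 to 32.4 in WT livers (median 17.8), a difference of 0.0069 (SE 0.080). Ltf, the iron-binding lactoferrin, ran from 19.4 to 35.2 units in TB livers (median 24.3) and from 19.1 to 38.6 in WT livers (median 23.5), a difference of 0.03 (SE 0.050). These 3 genes overlapped between the genotypes at every time except ZT 12 for Ltf, where the TB mean was 27.0 ± 1.57 units and the WT mean 22.1 ± 1.2 (SD, n = 3 each). Mmp8, a collagen-cleaving metalloprotease, ran from 11 to 19.5 units in TB livers (median 14.6) and from 11.9 to 18.2 in WT livers (median 13.9), a difference of 0.04 (SE 0.040). Adjusted p-values of these 4 genes lay between 0.779 and 0.986 (limma).

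The calprotectin genes differed in sign. S100a8 ran from 39.7 to 107 units in TB livers (median 69.1) and from 38.9 to 125 in WT livers (median 69.9), with a difference of -0.06 in log2 (SE 0.12, 95% interval -0.29 to 0.18). S100a9 ran from 23.8 to 55.9 units in TB livers (median 41.9) and from 22.8 to 54.8 in WT livers (median 39.5), with a difference of 0.10 (SE 0.082, interval -0.067 to 0.27). Neither passed (adjusted p 0.904 for S100a8 and 0.691 for S100a9, limma), although these proteins form a complex and their genes are neighbours. All 3 TB arrays of S100a9 were above all 3 WT arrays at ZT 16 (43.4 ± 1.67 and 35.5 ± 9.14 units, SD, n = 3 each) and at ZT 20 (40.5 ± 11.4 and 30.5 ± 1.80 units).

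**Figure D2:**
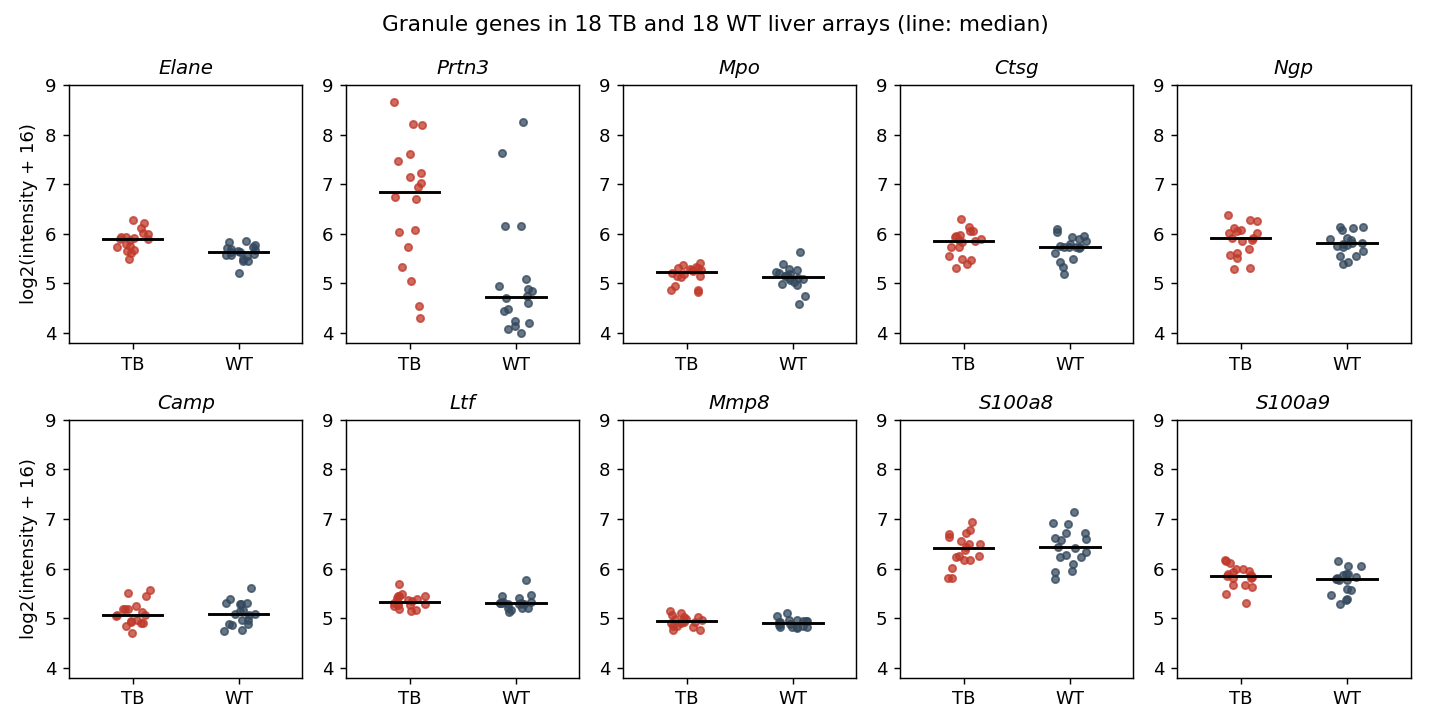
Level of each of the 10 granule genes on the log2(intensity + 16) scale (y axis) in 18 TB arrays (red, left) and 18 WT arrays (dark blue, right), with the median as a black line. The TB points of Prtn3 spread upwards from those of WT and those of Elane are shifted slightly, while the clouds of the other 8 genes overlap.

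In all, 1 of the 10 members (Elane) passed the genotype test, where 0.176% of all genes did (39 of 22180), 0.117% as higher and 0.0586% as lower in TB; since this contrast helped to choose the members, nothing is read from that count. Differences were positive for 9 of 10 members, with a median of 0.063, and for 11943 of all 22180 genes, with a median of 0.0073; with quantile normalization 7 of 10 and with median centring 8 of 10 members were positive, Camp among those that turned in both. Members whose TB arrays were all above the WT arrays numbered 1 of 10 at ZT 0, 4, 8, 12 and 20 and 3 of 10 at ZT 16. Over all genes this held for 4.27% at ZT 0, 4.80% at ZT 4, 3.54% at ZT 8, 6.79% at ZT 12, 7.98% at ZT 16 and 3.26% at ZT 20. No member had all TB arrays below the WT arrays at any time, where over all genes this held for 2.20%, 4.58%, 5.85%, 4.26%, 5.36% and 3.30% from ZT 0 to ZT 20. The members with all TB arrays above were Elane at ZT 0, 8 and 16, Prtn3 at ZT 4 and 16, Ltf at ZT 12, and S100a9 at ZT 16 and 20. Elane and Prtn3 were known to be higher in TB livers when the set was chosen, so nothing is read from these counts either.

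Time of day left no rhythm past the threshold in the members. With a 24 h cosine fitted per genotype, 0 of the 10 members passed in TB livers, where 4.95% of all genes did, and 0 of 10 passed in WT livers, where 6.45% did. An unadjusted p under 0.05 (limma) was reached by 0 members in either genotype, where 3725 of all 22180 genes reached it in each. The lowest adjusted p in TB livers was that of Ctsg, 0.395, with a fitted amplitude of 0.18 in log2 and a peak at ZT 8.66 (limma). The lowest in WT livers was that of Elane, 0.429, with an amplitude of 0.12 and a peak at ZT 4.75. Elane had a like fit in TB livers, with amplitude 0.12 and peak ZT 5.28 (adjusted p 0.452), and the highest TB amplitude was that of Prtn3, 0.80 (adjusted p 0.462), against 0.14 in WT livers (adjusted p 0.986).

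No member passed the F test for a genotype difference that depends on time. For this test 0 of 22180 genes passed (0%), with 550 at an unadjusted p under 0.05, of which 0 were members. For a difference in rhythm between the genotypes 0 genes passed as well (0%), with 1065 at an unadjusted p under 0.05 and again 0 members. For Prtn3, whose difference was 2.65 at ZT 4 and 0.26 at ZT 0, the unadjusted p for dependence on time was 0.284 (limma).

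Array by array, Prtn3 moved with the acute phase genes of the liver, which hepatocytes switch on under IL-6 and STAT3 signalling. Ranked by Pearson's r of deviations from group means over 36 arrays, the genes most like the mean of the 4 primary granule members were Itih3 (r = 0.871), Orm2, Qsox1, Fn1, Dnajc12, Serpina3n, Lrp1 and Stat3 (r = 0.854). With Prtn3 alone they were Orm2 (r = 0.898), Serpina3n, Apcs, Lcn2, Fn1, Qsox1, Plg and Orm1 (r = 0.863). The mean of the 4 members was taken without scaling. The SD within groups was 1.16 for Prtn3, against 0.165 for Elane, 0.213 for Mpo and 0.263 for Ctsg. This mean was therefore carried mostly by Prtn3 and is not read as a trait of the primary granule genes together. Orm1 and Orm2 (orosomucoids), Apcs (serum amyloid P) and Serpina3n (a serine protease inhibitor) are secreted plasma proteins, and Lcn2 (lipocalin 2) is made by both inflamed hepatocytes and neutrophils. These coefficients compare genes on the same arrays, so the genes share whatever varied between arrays, and they carry no p-value.

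A list of 10 acute phase genes written after these values were seen (Orm1, Orm2, Saa2, Saa3, Serpina3n, Apcs, Hp, Lcn2, Itih3 and Stat3) was set against every member. Of these 10 genes 7 are among those just named as most like Prtn3 or the primary granule mean, so a high r with Prtn3 was built into the list, and the values are a description that gives no support to a difference between members. The deviations of Prtn3 followed the mean of the list with r = 0.912 and rho = 0.834 over 36 arrays, and with r = 0.870 without the 2 arrays farthest from the median. With single genes of the list r ranged from 0.711 to 0.898. In levels r was 0.953 over the 18 TB arrays and 0.885 over the 18 WT arrays, 0.917 within the larger and 0.924 within the smaller array set. The same measure for Elane, 3137 bases away, was r = 0.179 and rho = 0.188 over deviations. The remaining members lay between -0.083 for Camp and 0.474 for Ngp, with Mpo at 0.113, Ctsg at 0.094, S100a8 at 0.251 and S100a9 at 0.453, and Ngp had r = 0.544 in levels within the larger set and -0.160 within the smaller.

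**Figure D3:**
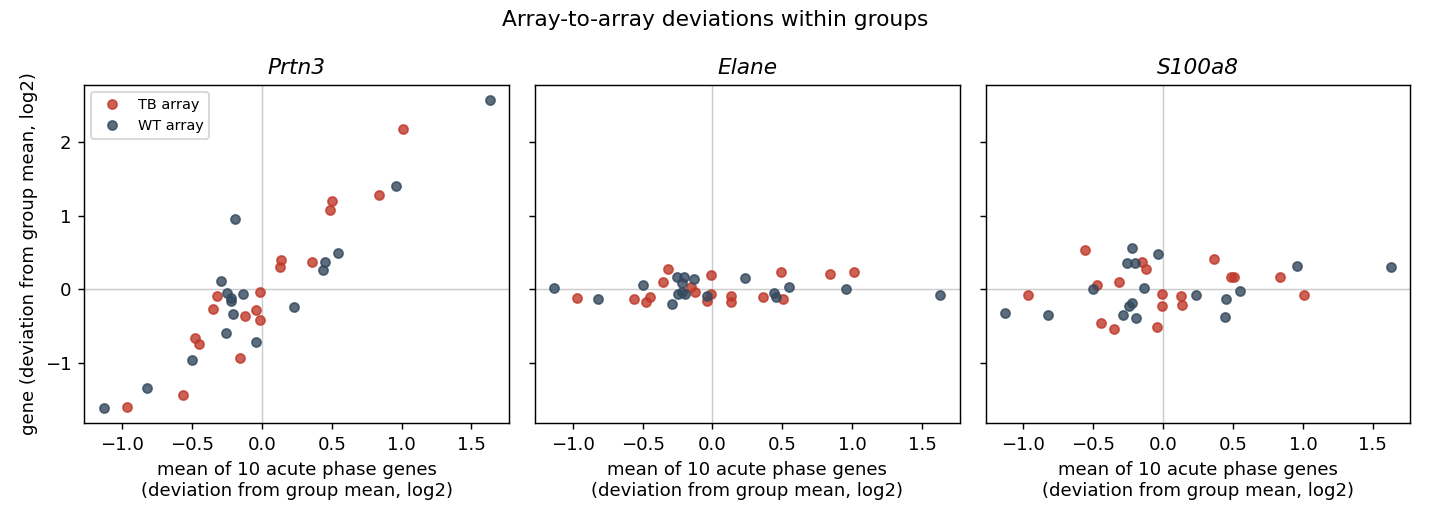
Deviation of Prtn3, Elane and S100a8 from the mean of their group (y axis, log2) against that of the mean of 10 acute phase genes (x axis, log2), 1 point per array, TB in red and WT in dark blue. Prtn3 rises along a line in both genotypes (r = 0.912), while Elane stays near 0 (r = 0.179) and S100a8 scatters (r = 0.251).

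The 2 WT arrays highest in Prtn3 were also high in Lcn2 and Orm2, which did not hold for every WT array with raised Prtn3. WT ZT 12 replicate 1, with 289 units of Prtn3, had 5120 units of Lcn2 and 9180 of Orm2, and WT ZT 0 replicate 2, with 182 units of Prtn3, had 5670 of Lcn2 and 5250 of Orm2. These were the 2 highest values of each gene among the WT arrays, and the next WT array had 1210 units of Lcn2 and 1800 of Orm2. Elane read 31.4 and 35.8 units on the 2 WT arrays highest in Prtn3, inside the WT range. WT ZT 0 replicate 1 and WT ZT 8 replicate 3 came next in Prtn3, each with 55.4 units. The former had the 1210 units of Lcn2 and 1800 of Orm2. The latter had 122 units of Lcn2 and 216 of Orm2, the lowest Orm2 value of the WT arrays. Among TB arrays the highest in Prtn3, ZT 0 replicate 1 with 385 units, was also the highest in Orm2, with 6170 units, and had 3480 units of Lcn2.

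The acute phase genes themselves were higher in TB livers on average, all 10 with positive differences from 0.26 (Saa3) to 1.84 (Lcn2) in log2. Only Lcn2 passed (SE 0.40, adjusted p = 0.0442, limma), and the other 9 had adjusted p-values from 0.0961 (Stat3) to 0.531 (Saa3). The list was written after the values were seen, and 7 of its 10 genes had ranked as most like Prtn3 or the primary granule mean. Prtn3 was itself known to be higher in TB livers, so nothing is read from the shared sign. Over all genes 11943 of 22180 had positive differences. Of the 8 Kupffer cell markers, Marco, a scavenger receptor of these liver macrophages, had r = 0.819 with Prtn3 over deviations. The median r of the 8 was 0.331, and their summed level ranged from 1290 to 2890 units in TB livers and from 942 to 2630 in WT livers. The part of these genes in the Prtn3 difference was not tested.

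The neighbouring genes on chromosome 10 were looked at by position. Med16, a Mediator subunit gene on the far side of Elane, had r = 0.779 with Prtn3 over deviations and a genotype difference of 0.09 in log2 (SE 0.064, adjusted p 0.641, limma). Plppr3, on the other side of Prtn3, had r = -0.285 and a difference of 0.08 (SE 0.045, adjusted p 0.541). Elane, between Prtn3 and Med16, had r = 0.199 with Prtn3. Elane averaged 38.3 units, within the range of the array medians, and its SD within groups was 0.165. Whether this low level and small spread limit its r was not tested, so nothing is read about position from these few genes.

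Members were compared with each other over deviations from group means, in 45 pairs with permutations within groups (100000 resamples, two-sided). Positive r was found in 29 of the 45 pairs, with a median of 0.094. Pearson's r passed for 3 pairs, each at an adjusted p of 0.0219: Ctsg with Ngp (r = 0.658, rho = 0.593), Ngp with S100a8 (r = 0.622, rho = 0.596) and Ltf with S100a8 (r = 0.590, rho = 0.542). Without the 2 arrays farthest from the median these were 0.611, 0.604 and 0.523. By Spearman's rho 0 pairs passed (adjusted permutation p of 0.0535, 0.0535 and 0.0814). Elane and Prtn3 had r = 0.20 over deviations.

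Of the genes in those pairs, Ctsg, Ngp and S100a8 differed between the array sets, and Ltf did not pass (adjusted p 0.139, limma). Ngp was lower in the smaller set by 0.39 in log2 (SE 0.075, adjusted p = 0.000184), S100a8 by 0.41 (SE 0.096, adjusted p = 0.00151) and Ctsg by 0.29 (SE 0.070, adjusted p = 0.00201, limma), and the other 7 members did not pass. This made 3 of 10 members, near the 30.6% of all genes that passed in either direction. All 3 were lower in the smaller set, where 13.6% of all genes passed as lower, and nothing is read from so few members. Ngp ranged from 22.9 to 54.5 units in the smaller set and from 31.1 to 67.4 in the larger. Within the larger set (24 arrays) 0 of the 45 pairs passed in levels, with 7 at an unadjusted permutation p under 0.05, and within the smaller set (12 arrays) 0 passed, with 2 under 0.05. Here Ctsg and Ngp had r = 0.425 in the smaller set and r = 0.421 in the larger, and Ngp and S100a8 had r = 0.588 in the smaller and 0.156 in the larger. Ltf and S100a8 had r = 0.221 in the smaller and r = 0.442 in the larger, with an unadjusted permutation p of 0.03 and an adjusted p of 0.289 in the larger. The relations between members therefore did not hold past the threshold within the array sets.

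**Figure D4:**
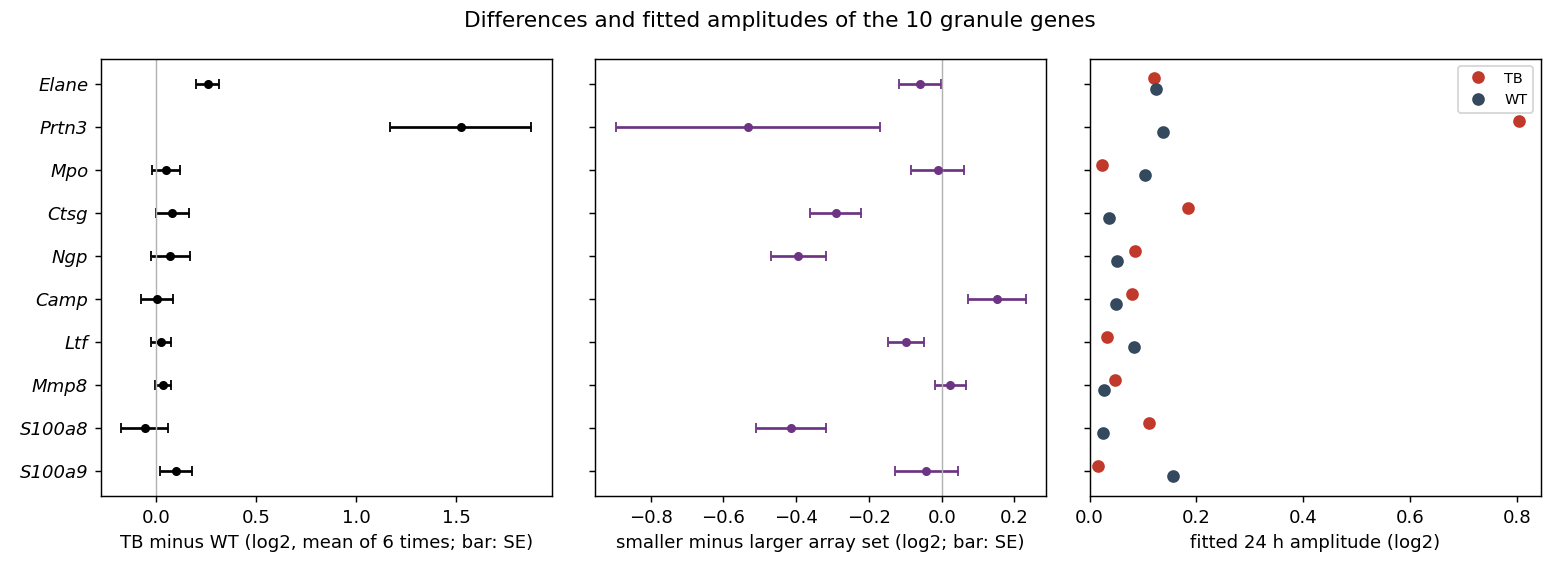
For each granule gene (rows), the TB minus WT difference in log2 averaged over 6 times (left, bar: SE), the difference of the smaller minus the larger array set in log2 (middle, bar: SE), and the amplitude of the fitted 24 h cosine in log2 in TB (red) and WT (dark blue) livers (right). Prtn3 stands apart in its genotype difference of 1.52, Ctsg, Ngp and S100a8 are lower in the smaller array set, and no amplitude passed the test.

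The genes most like the mean of the 6 later granule and calprotectin members were Lingo3 (r = 0.765), Cabp4, Timeless, Cfap57, Chst4, Cdca2, Tex14 and B4galt7 (r = 0.707). Within the larger array set their r in levels fell between 0.11 (Tex14) and 0.58 (Lingo3). The genes most like the mean of Elane, Mpo and Ctsg were Morn5 (r = 0.754), Peg10, Six3os1, Galnt17, Zfp580, Kcna2, Psma8 and Neurod1 (r = 0.731). Neither set held an acute phase gene of the list above. Of that list 7 of 10 genes had been ranked as most like Prtn3 or the primary granule mean, so nothing is read from their absence here.

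Few other genes of the neutrophil lineage passed the threshold for the genotype difference. Of 34 mature neutrophil genes 31 were measured, 23 with positive differences and a median of 0.040. Lcn2, which is also one of the acute phase genes, rose by 1.84 and was the only member of that list past the threshold, and 0 fell. Over all genes 0.176% passed in either direction. At an unadjusted p under 0.05 were 8 of the 31, all but Pygl higher in TB livers, against 11% of all genes. With single arrays left out in turn, the Lcn2 call held in only 9 of 36 fits and was lost in the others (adjusted p 0.00438 to 0.0981, limma). Pygl (liver glycogen phosphorylase, also present in neutrophils) had -0.22 (adjusted p 0.129), Stfa2l1 (a stefin) 0.13 (adjusted p 0.302) and Cd177 (a neutrophil surface protein that binds proteinase 3 in humans) 0.13 (adjusted p 0.376, limma). Ly6g, the surface antigen that defines mouse neutrophils, was added after its value was seen and had -0.06 (SE 0.055, adjusted p 0.749).

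Among the other primary granule and promyelocyte genes 13 of 13 were measured, 8 with positive differences, a median of 0.031, and 0 past the threshold, with 3 at an unadjusted p under 0.05, a level that 2449 of all 22180 genes (11%) reached. Plac8 had 0.26 (adjusted p 0.187), Ctsc, the protease that activates elastase, proteinase 3 and cathepsin G, 0.31 (adjusted p 0.220), Serpinb1a, an inhibitor of these proteases, -0.38 (adjusted p 0.262), and Rgcc 0.12 (adjusted p 0.454, limma). Ctsc had r = 0.693 with Prtn3 over deviations. Of the NADPH oxidase genes 5 of 6 were measured, 4 were positive, the median was 0.085, and 0 passed, Ncf1 being the nearest at 0.16 (adjusted p 0.259).

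Of 12 granulopoiesis transcription factors 9 had positive differences, the median was 0.077, and 0 passed, with 3 of 12 at an unadjusted p under 0.05, where 11% of all genes were. Gata1 had 0.14 (adjusted p 0.198), Cebpa -0.16 (adjusted p 0.278), Cebpd 0.23 (adjusted p 0.308) and Gfi1 0.10 (adjusted p 0.529, limma). In this list Cebpb was rhythmic in TB livers (amplitude 0.55, peak ZT 11.6, adjusted p 0.0182) and Cebpd in WT livers (amplitude 0.43, peak ZT 13.9, adjusted p 0.0167); Cebpb was named for this after its value was seen, and these factors also act in hepatocytes. Within the smaller array set the adjusted p was 0.479 for Cebpb and 0.198 for Cebpd, and within the larger it was 0.234 for Cebpd. Over all arrays Cebpb had an adjusted p of 0.242 in WT livers and Cebpd of 0.107 in TB livers, and for a difference in rhythm 0 of all genes passed.

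Of 22 signals of neutrophil production and recruitment 21 had positive differences, with a median of 0.074. Over all genes 11943 of 22180 were positive, with a median of 0.0073. At an unadjusted p under 0.05 (limma) were 3 of the 22, where 11% of all genes were. Selp, the P-selectin of platelets and activated endothelium, rose by 0.61 in TB livers (SE 0.13, means 6.00 in TB livers and 5.39 in WT livers, adjusted p = 0.0379, limma), and 0 others passed. Over all genes 0.176% passed. With single arrays left out in turn, the Selp call held in only 16 of 36 fits and was lost in the others (adjusted p 0.00864 to 0.0828, limma). Csf1 had 0.22 (adjusted p 0.146), Il1a 0.16 (adjusted p 0.386) and Icam1 0.27 (adjusted p 0.465). Of 13 inhibitors of the serine proteases 11 were measured, 9 were positive, the median was 0.065, and 0 passed. At an unadjusted p under 0.05 were 4 of the 11, where 11% of all genes were. Serpina3n, at 0.47 (adjusted p 0.115, limma), had r = 0.895 with Prtn3.

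Marker lists of other cell types that could bring granule transcripts gave no call for the genotype difference. Of 10 proliferation genes 9 were measured, 3 were positive and 0 passed, and Mki67 had 0.12 (adjusted p 0.386, limma). Haematopoietic progenitor markers (4 of 6 measured) summed to 147 to 209 units in TB livers and 156 to 511 in WT livers, monocyte markers (8 of 8) to 3790 to 5860 in TB livers and 3300 to 5920 in WT livers, and eosinophil markers (6 of 7) to 84.8 to 133 in TB livers and 74.3 to 136 in WT livers. Mast cell and basophil markers (9 of 9) summed to 204 to 289 units in TB livers and 202 to 315 in WT livers. In all of these lists the ranges of the genotypes overlapped. The monocyte sum was carried largely by Fn1, with mean log2 levels of 11.95 in TB livers and 11.77 in WT livers. No other marker of that list had a mean above 7.90 in either genotype. Fn1 was also among the genes most like Prtn3, so the sum is not read as a level of monocytes.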

How the data were processed

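RNA of 18 TB and 18 WT mouse livers was measured on 36 arrays, grouped by the sample titles, which also number the replicates. The authors deposited 1 linear intensity per probe set and array, made with Affymetrix Expression Console 1.1.1 and PLIER 2.0 per the submitters' processing notes, with settings and normalization not given in the sources used here. Precision is limited by having 3 arrays in a group. Values became log2(intensity + 16) with no further normalization or filter. Of the 23521 probe sets with 1 symbol, 23328 (99.2%) matched RefSeq GRCm38.p6, and the highest-mean probe set per gene left 22180 genes.

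Tests were limma 3.58.1 fits (R 4.3.3, lmFit and eBayes) with 12 group means, or a mean and 24 h cosine and sine terms per genotype, with Benjamini-Hochberg adjustment over all genes and a threshold of 0.05. The array sets were tested in the same fit. Correlations used 100000 permutations, within groups for deviations (Python 3.11.15, numpy 2.4.6). The fits and correlations were tested on simulated data. The members and lists were chosen with earlier results of these data known. The text names all members, at most 4 genes of a list (those of smallest p), the 8 genes most like 2 mean profiles, and genes next to members; exceptions are stated. Promoters came from RefSeq. Alternatives were the added constant, normalization, filter, probe set rule, blocks, weights, array sets and arrays left out. Part of the TB genotype is not reported here.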

Additional observations from a re-analysis of the deposited data

How the results depend on the processing

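Elane and Prtn3 were higher in TB livers under every alternative run, but which of them passed varied; Camp, Ltf, Ctsg and Ngp, none of which passed, turned negative under at least 1 alternative. Of the 10 members, 0 passed with 1 unit added before log2, with quantile normalization, with median centring, within the smaller array set and with a trended robust fit. Elane and Prtn3, 2 members, passed with the genes lowest in mean removed (6 of the 10 members left), with the array set as a block and with array weights. With all 36 arrays or the larger set, Elane's adjusted p lay between 0.0127 and 0.0655 and that of Prtn3 between 0.0153 and 0.133; in the smaller set these were 0.487 for Elane and 0.292 for Prtn3 (limma). With single arrays left out 0 to 2 members passed: 0 in 25 of 36 cases. The count was 1 or 2 without WT ZT 0 replicates 1 or 2, WT ZT 8 replicate 2, WT ZT 12 replicates 1 or 3, WT ZT 20 replicate 3, TB ZT 0 replicates 2 or 3, TB ZT 8 replicate 2, TB ZT 16 replicate 1 or TB ZT 20 replicate 3, and 0 without any other array. Elane's difference then ranged from 0.24 to 0.27 and that of Prtn3 from 1.34 (without TB ZT 0 replicate 1) to 1.74 (without WT ZT 12 replicate 1).

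Counts of members for rhythm in either genotype, difference in rhythm and dependence on time were 0 under every alternative run; for dependence on time the smaller array set could not be fitted. Over 198 pairs of arrays with the same number from any 2 groups, including TB and WT of 1 time, r of deviations ranged from -0.407 to 0.483. It was over 0.1 in 74. The smaller array set was replicate 3 at ZT 0 and 12, replicate 1 at ZT 4 and 16, and replicate 2 at ZT 8 and 20. Ties of replicate numbers across times were therefore not separated from the array sets. Within a time, TB and WT arrays of the same number had a median r of 0.164 (18 pairs, 14 over 0.1, lowest -0.0517), and the smaller array set carried the same number in both genotypes at each time, so part of this pairing is in the fit with the array set as a block. With the replicate block 1 member passed, Elane (adjusted p 0.0420), and Prtn3 had 0.0553 (limma).

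Of the 45 pairs of members, 3 passed over deviations, 5 over levels of all arrays, 0 within the larger array set (levels or, as an alternative chosen after seeing the data, deviations), 0 within the smaller set and 1 (Ctsg with Ngp) without WT ZT 12 replicate 3. Leaving out single arrays gave 0 to 3: 0 without WT ZT 0 replicate 3, any TB array of ZT 0 or TB ZT 4 replicate 1, and 1 without WT ZT 0 replicates 1 or 2. The likeness to Prtn3 alone, to the mean of Elane, Mpo and Ctsg and to the acute phase list was chosen after seeing the data. The genotype calls of Lcn2 and Selp held under 9 of 13 other settings each, and were lost with 1 or 64 units added, within the smaller set and in the trended robust fit. The rhythm calls held under 12 of 14 for Cebpb and 11 of 13 for Cebpd. Low signal limits Mmp8, Prtn3, Camp and Mpo most.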
